A study of Mus musculus with 16 samples.

Results

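The 9 genes described here are Sorcs2, Adprhl1, Ttc25, Fer1l6, Fam57b, Pqlc3, Slc38a10, Tmem120b and Sbk1, in interscapular brown fat of the mouse. They were chosen because their counts at 22 °C were lower in Akt2-knockout tissue than in wild type, among genes that are not fatty acid synthesis enzymes, and they are 9 of the 14103 genes tested and of the 38924 genes in the table. The values at 22 °C, and the higher level at 22 °C than at 30 °C in wild type that gave the set its working description, therefore chose the members and are given below as a description with no test. Knockout against wild type at 30 °C uses none of the libraries at 22 °C and was tested, but it shares the 4 wild-type libraries at 30 °C with the wild-type temperature comparison. All 9 genes passed the filter on low counts. Adprhl1 passed it through the wild-type libraries at 22 °C alone.

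AKT2 is a serine/threonine kinase that is activated downstream of the insulin receptor and phosphatidylinositol 3-kinase, and in adipocytes it promotes glucose uptake and the synthesis of fatty acids from glucose. Brown adipocytes oxidise fatty acids to make heat through the uncoupling protein UCP1, and in cool surroundings they also raise the enzymes of fatty acid synthesis, such as fatty acid synthase (Fasn). The 9 genes have other roles: sorting and fusion of membranes, transport of solutes across membranes, lipid-related membrane proteins, a protein kinase, and a pair of proteins known mainly from cilia and from the heart.

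The mice were of strain C57BL/6J, were acclimated to 30 °C (thermoneutral for mice) or to 22 °C for 4 weeks from the age of 9 weeks, and were 13 weeks old at sampling. Each temperature had 4 libraries of wild-type littermates (WT) and 4 of mice whose Akt2 was deleted with UCP1-CreER (KO), a Cre recombinase driven by the Ucp1 promoter and made to depend on an oestrogen-receptor ligand, so other cells of the depot keep the gene. The sources used here give no deletion schedule, no ligand and no Cre status of the WT littermates. Nor do they tie libraries to separate animals, so the p-values reflect only the spread among these libraries, which may be partly technical.

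Expression levels are given as CPM, raw counts scaled to library size with trimmed-mean (TMM) factors. Library totals ranged from 12751528 to 23866743 counts. Akt2 was lower in KO at both temperatures, at 56.2 to 81.0 CPM against 192 to 221 CPM at 30 °C and at 76.3 to 89.3 CPM against 216 to 261 CPM at 22 °C, which are log2 fold changes of -1.55 and -1.50 (adjusted p of 2.13e-06 and 5.06e-07 by edgeR). All 11 brown adipocyte markers were detected and held 1.28% to 2.81% of the counts. The 12 skeletal muscle markers held over 0.1% of the counts in 4 libraries: WT at 30 °C replicate 2, KO at 30 °C replicates 1 and 2, and KO at 22 °C replicate 1 (0.577%). The 8 endothelial markers held 0.0613% to 0.0823% in WT and 0.0875% to 0.107% in KO at 22 °C, and these ranges did not overlap. In WT they held more at 30 °C, 0.124% to 0.134%, the 10 macrophage markers went from 0.0216% to 0.0339% at 30 °C to 0.00939% to 0.0213% at 22 °C, and the brown adipocyte markers from 1.29% to 1.46% at 30 °C to 1.70% to 2.81% at 22 °C, each without overlap. The part of these shifts in the results was not tested. The clock genes Dbp and Arntl also separated the genotypes at 22 °C: log2 Dbp minus log2 Arntl was -0.75 to 1.69 in WT, with replicate 4 lowest, and -3.12 to -2.03 in KO. A difference in the clock or in sampling time therefore cannot be told apart from genotype at 22 °C. Fits with this difference as a covariate do not separate them. In bulk tissue, fewer cells of a type and less RNA per cell cannot be told apart.

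Promoter sequences were available in the RefSeq table (GRCm38.p6) for 5 of the 9 genes, in 7 promoters that span 250 bases before and 50 bases after a start site. Sorcs2, Ttc25, Fer1l6 and Sbk1 had no entry. Both strands were searched for CACGTG (the E-box), the carbohydrate response element (a pair of E-box copies), TCACNCCAC (a sterol response element), TGACGTCA (the cyclic AMP response element), GTAAACA (a FOXO site), CCAAT (the NF-Y site), and the direct repeats DR4 of liver X receptors and DR1 of PPARs. Of these, only the carbohydrate response element contains another searched motif. The promoters of Adprhl1 and Tmem120b are shown because each held a motif found in few promoters. The Adprhl1 stretch lies at chr8:13254163-13254412 on the minus strand and holds the E-box 49 bases before the start. It also holds CCAAT on the other strand, 21 bases before the start. The Tmem120b stretch lies at chr5:123076025-123076294 on the plus strand and includes 20 transcribed bases. It holds TGACGTCA beginning 1 base before this RefSeq start, which lies inside the gene span used here (from chr5:123068415). Each is written 5′ to 3′ on the strand of the gene, with motif matches in capitals.
Adprhl1: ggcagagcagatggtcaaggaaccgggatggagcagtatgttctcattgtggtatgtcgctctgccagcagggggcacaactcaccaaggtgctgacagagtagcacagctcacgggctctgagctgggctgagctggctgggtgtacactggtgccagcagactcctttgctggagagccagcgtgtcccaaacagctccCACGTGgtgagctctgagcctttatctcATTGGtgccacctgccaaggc
Tmem120b: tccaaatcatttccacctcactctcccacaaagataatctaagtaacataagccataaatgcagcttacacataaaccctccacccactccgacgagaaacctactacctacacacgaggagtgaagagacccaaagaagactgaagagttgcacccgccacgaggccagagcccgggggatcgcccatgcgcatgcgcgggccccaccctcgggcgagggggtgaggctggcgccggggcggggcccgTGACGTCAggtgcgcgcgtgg

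The E-box was present in 7.15% of all 32851 promoters in the table, TGACGTCA in 1.79% and CCAAT in 37.4%. The Slc38a10 promoter held CCAAT on the other strand 115 bases before the start. The 3 promoters of Fam57b and the promoter of Pqlc3 held none of the motifs searched. These promoters too lie inside the spans of their genes. TCACNCCAC, in 1.24% of all promoters, and GTAAACA, in 3.65%, were in none of the 7. Nor were DR4, in 0.0152%, DR1, in 0.0396%, or the carbohydrate response element, in 0 promoters of the table. The repeats and the pair of E-box copies were searched as exact letters at a fixed spacing, which almost no promoter holds. Their absence from the 7 promoters thus tells nothing about these genes. A match is a run of letters and not a site shown to be bound.

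All 9 genes were lower in each KO library than in each WT library at 22 °C, by 2.18-fold (Slc38a10) to 19.9-fold (Adprhl1), with a median log2 fold change of -2.06 against 0.02 over all genes tested. Groups failed to overlap in that direction for 9.78% of all genes. That contrast chose the members, so nothing is read from this count. In WT all 9 were higher in each library at 22 °C than in each at 30 °C, with log2 fold changes of 0.61 to 5.52 and a median of 1.78 against -0.03 over all genes. For 18.4% of all genes the groups failed to overlap in that direction. Both contrasts share the 4 WT libraries at 22 °C. In KO the 9 genes went different ways between the temperatures, which divides the set into 3 that were lower at 22 °C (Sorcs2, Pqlc3 and Sbk1), 2 that were higher (Fam57b and Tmem120b) and 4 whose groups overlapped. Over all genes, 15.0% were lower without overlap in KO at 22 °C and 17.7% were higher without overlap.

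**Figure D1:**
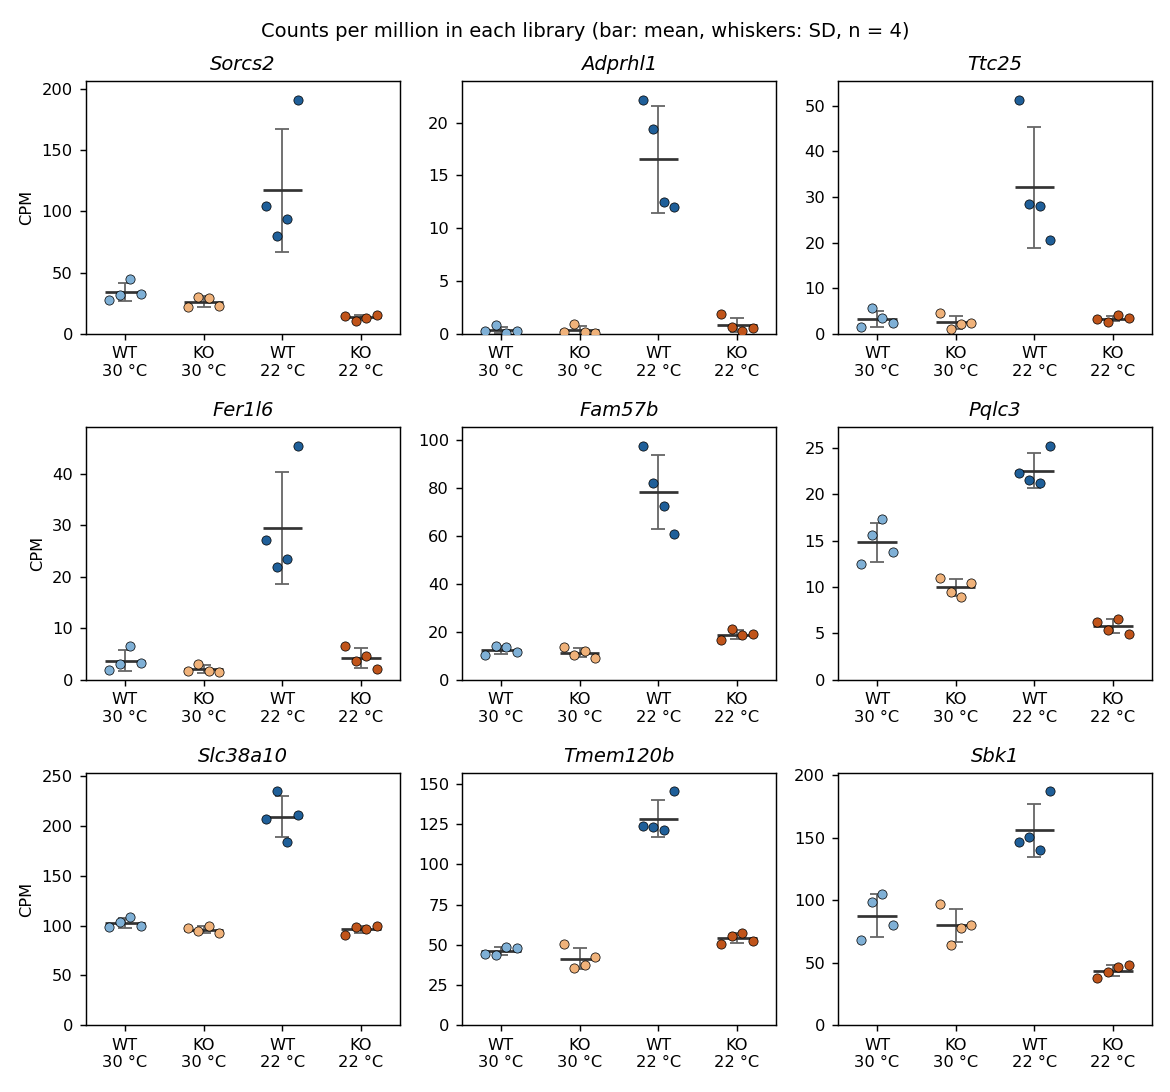
Levels in CPM (vertical axes, linear from 0, own scale per gene) of the 9 genes in each of the 16 libraries, by genotype and temperature. Points are libraries in order of replicate number, bars are means and whiskers are SD (n = 4); in all 9 panels the WT libraries at 22 °C lie above those of the other 3 groups.

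Sorcs2 (ENSMUSG00000029093, chr5:36017180-36398139, minus strand) encodes a VPS10-domain receptor that sorts proteins between membranes and is best known from neurons, where it binds proneurotrophins. Its level was 27.3, 32.0, 44.9 and 32.2 CPM in the WT libraries at 30 °C and 22.3, 30.3, 29.6 and 22.5 CPM in KO, in order of replicate. At 22 °C it was 105, 80.1, 93.8 and 191 CPM in WT and 14.4, 10.2, 13.2 and 15.6 CPM in KO. WT replicate 4 was the highest library at 22 °C, and the groups overlapped only at 30 °C. All KO libraries at 22 °C lay below all KO libraries at 30 °C. The log2 fold change between temperatures was 1.78 ± 0.241 (SE) in WT and -0.97 ± 0.245 in KO, and KO against WT at 22 °C gave -3.14 ± 0.256. Without WT replicate 4 at 22 °C the last value was -2.80.

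Fer1l6 (ENSMUSG00000037106, chr15:58510048-58665092, plus strand) encodes a ferlin, a membrane protein with several calcium-type C2 domains from a family that takes part in vesicle fusion and membrane repair. It was at 1.96, 2.98, 6.62 and 3.20 CPM in WT and 1.77, 3.11, 1.74 and 1.47 CPM in KO at 30 °C. At 22 °C it was at 27.1, 21.9, 23.4 and 45.5 CPM in WT and 6.53, 3.61, 4.61 and 2.02 CPM in KO. WT replicate 4 at 22 °C was again the highest library, and the KO groups at the 2 temperatures overlapped. The log2 fold change from 30 °C to 22 °C was 2.99 ± 0.392 in WT and 1.04 ± 0.413 in KO.

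Slc38a10 (ENSMUSG00000061306, chr11:120103960-120151346, minus strand) encodes a member of the SLC38 family of sodium-coupled amino acid transporters. It varied least of the 9 genes between libraries except in WT at 22 °C, where Pqlc3 and Tmem120b had the lower SD relative to the mean: 98.3, 103, 109 and 99.7 CPM in WT and 97.1, 94.1, 99.7 and 92.2 CPM in KO at 30 °C. At 22 °C it was at 207, 234, 184 and 211 CPM in WT and 90.4, 98.2, 96.3 and 99.2 CPM in KO. Between temperatures the log2 fold change was 1.03 ± 0.0734 in WT and 0.00 ± 0.0729 in KO. The KO groups overlapped, and the sign of the KO value turned to -0.09 with upper-quartile scaling.

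Pqlc3 (ENSMUSG00000045679, chr12:16988648-17000408, minus strand) encodes a PQ-loop membrane protein, of the family that includes the lysosomal cystine exporter cystinosin. Its level was 12.5, 15.6, 17.3 and 13.8 CPM in WT and 11.0, 9.44, 8.91 and 10.5 CPM in KO at 30 °C, with no overlap. At 22 °C it was 22.3, 21.6, 21.2 and 25.3 CPM in WT and 6.19, 5.39, 6.55 and 4.93 CPM in KO. Each KO library at 22 °C was thus below each KO library at 30 °C, and each WT library at 22 °C was above each at 30 °C. The log2 fold change between temperatures was 0.61 ± 0.117 in WT and -0.79 ± 0.124 in KO.

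Tmem120b (ENSMUSG00000054434, chr5:123068415-123117749, plus strand) encodes a transmembrane protein of the nuclear envelope that has been linked, like its paralog Tmem120a, to adipocyte differentiation. It was at 44.5, 43.9, 48.7 and 47.8 CPM in WT and 50.5, 35.8, 37.2 and 42.5 CPM in KO at 30 °C. At 22 °C it was at 124, 123, 121 and 145 CPM in WT and 50.8, 55.5, 57.7 and 52.5 CPM in KO. The KO libraries at 22 °C lay just above those at 30 °C, the closest pair being 50.8 and 50.5 CPM. The log2 fold change between temperatures was 1.47 ± 0.1004 in WT and 0.38 ± 0.0995 in KO.

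Fam57b (ENSMUSG00000058966, chr7:126797668-126830219, plus strand; Tlcd3b in RefSeq) encodes a TLC-domain membrane protein related to ceramide synthases. It was at 10.3, 13.9, 13.6 and 11.4 CPM in WT and 13.5, 10.5, 12.1 and 8.99 CPM in KO at 30 °C. At 22 °C it was at 97.9, 82.2, 72.8 and 61.0 CPM in WT and 16.4, 21.1, 18.6 and 19.1 CPM in KO. Here WT replicate 4 at 22 °C was the lowest of its group, not the highest. The log2 fold change between temperatures was 2.67 ± 0.158 in WT and 0.74 ± 0.155 in KO, where the groups did not overlap.

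Sbk1 (ENSMUSG00000042978, chr7:126272619-126295016, plus strand) encodes a serine/threonine kinase with an SH3-binding region and lies 502.7 kb from Fam57b. Its level was 67.9, 98.6, 105 and 80.0 CPM in WT and 96.9, 64.7, 77.8 and 80.5 CPM in KO at 30 °C. At 22 °C it was 146, 151, 140 and 187 CPM in WT and 38.3, 42.5, 46.7 and 48.2 CPM in KO. Like Sorcs2 and Pqlc3, it was lower in all KO libraries at 22 °C than in all KO libraries at 30 °C. The log2 fold change between temperatures was 0.83 ± 0.146 in WT and -0.86 ± 0.147 in KO.

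Ttc25 (ENSMUSG00000006784, chr11:100545607-100572568, plus strand) encodes a tetratricopeptide-repeat protein that docks the outer dynein arms of motile cilia. It was at 1.55, 5.67, 3.57 and 2.30 CPM in WT and 4.52, 1.02, 2.11 and 2.29 CPM in KO at 30 °C. The 22 °C libraries had 51.3, 28.4, 28.1 and 20.5 CPM in WT and 3.27, 2.63, 4.08 and 3.38 CPM in KO. WT replicate 1 at 22 °C was the highest library and replicate 4 the lowest of its group, and the KO groups overlapped. The log2 fold change between temperatures was 3.29 ± 0.418 in WT and 0.44 ± 0.433 in KO. Of 5 other genes of motile cilia measured, 1 passed the filter, and in no library did they hold more than 0.000204% of counts. Foxj1, which drives the motile cilia programme, had at most 1 count in any library. It was at 0 in all WT libraries at 30 °C but not in all those at 22 °C.

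Adprhl1 (ENSMUSG00000031448, chr8:13221663-13254162, minus strand) encodes an ADP-ribosylhydrolase-like protein that has lost key catalytic residues and is known from the heart. It was close to absent outside WT at 22 °C, at 0.297, 0.802, 0.0576 and 0.242 CPM in WT and 0.141, 0.956, 0.151 and 0.109 CPM in KO at 30 °C, which are 1 to 16 counts per library. At 22 °C it was at 22.2, 19.4, 12.5 and 12.03 CPM in WT (200 to 450 counts) and 1.84, 0.612, 0.267 and 0.594 CPM in KO (4 to 27 counts). The highest library of the 3 low groups was in each case a library that held over 0.1% of its counts on skeletal muscle markers. The WT libraries at 22 °C held 0.00476% to 0.0277% on those markers. None of the 6 cardiac muscle markers passed the filter, and Myl7 was at 0 in all 16 libraries. The log2 fold change between temperatures was 5.52 ± 0.669 in WT and 1.22 ± 0.726 in KO. Without the 4 muscle-bearing libraries these were 6.34 and 1.91, and KO against WT at 22 °C moved from -4.32 to -5.05.

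**Figure D2:**
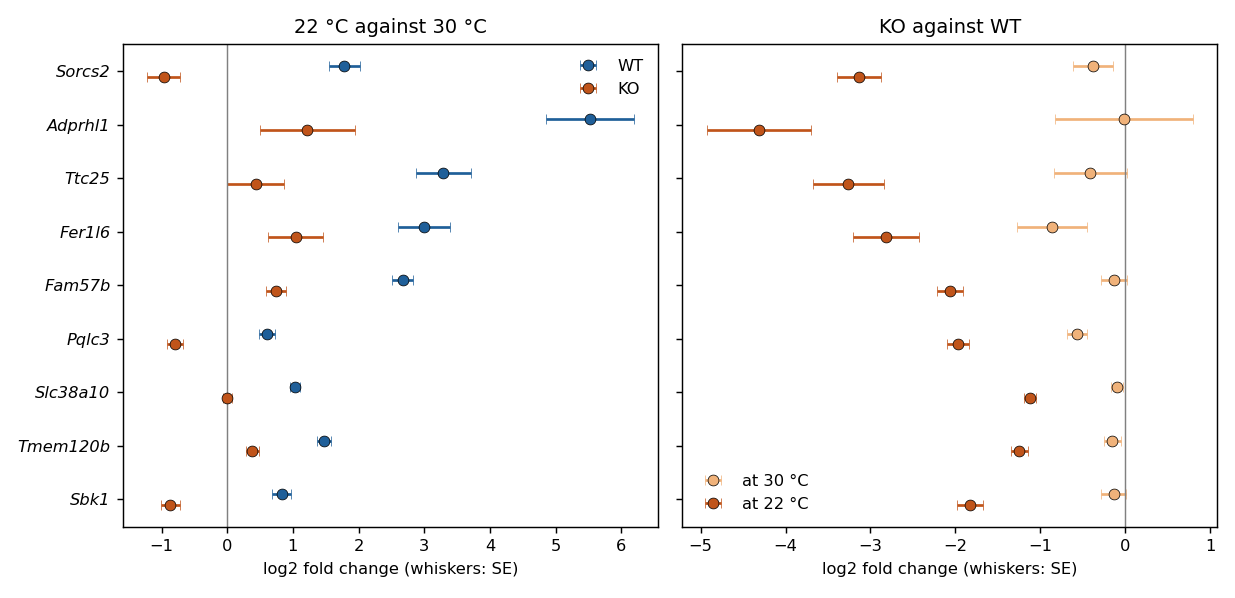
Log2 fold changes of the 9 genes between 22 °C and 30 °C in each genotype (left) and between KO and WT at each temperature (right); whiskers are SE from the fit of all 16 libraries. Sorcs2, Pqlc3 and Sbk1 lie on opposite sides of 0 in WT and KO on the left, and on the right the values at 30 °C lie between -0.87 and -0.01.

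At 30 °C none of the 9 genes was called changed between KO and WT by edgeR's quasi-likelihood test at a Benjamini-Hochberg adjusted p under 0.05. In all, 6 of 14103 genes, or 0.0425%, were called. Adprhl1, at 1 to 16 counts per library, was too low at 30 °C for a difference to be detectable (-0.01 ± 0.810). In simulated counts for this comparison, edgeR called 26 of 100 genes changed 1.5-fold and 61 of 100 genes changed 2-fold. The simulation changed 200 genes and pooled all levels of expression, so its rates are not those of a single gene. In the other 8 genes the SE at 30 °C ran from 0.0729 (Slc38a10) to 0.431 (Ttc25). Changes of that size could thus be missed more readily in some of these genes than in others. The other 8 genes had log2 fold changes of -0.87 to -0.10, with a median of -0.27 against 0.02 over all genes, and in 7 of these 8 the groups overlapped. Pqlc3 was the exception: its groups did not overlap, as for 2.57% of all genes in that direction. Its log2 fold change was -0.57 ± 0.120 with an adjusted p of 0.261 by edgeR, and it was lower in 4 of 4 KO libraries. DESeq2 gave it an adjusted p of 0.0114 and limma-voom with quality weights 0.0421, so its call at 30 °C depended on the test. Over all alternatives its adjusted p ranged from 0.0114 to 0.9997. It was also the only member with an unadjusted p under 0.05 by edgeR, as were 608 genes in all. Fer1l6 had a log2 fold change of -0.87 ± 0.413 at 30 °C, with an adjusted p of 0.998 by edgeR, and it was -0.43 without WT replicate 3 at 30 °C and -1.31 without the 4 muscle-bearing libraries.

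Levels were compared between genes per kilobase of exon. In WT at 22 °C the order was Tmem120b (45.0 ± 3.97 CPM per kb, mean ± SD, n = 4), Sbk1 (36.9 ± 4.99), Slc38a10 (32.5 ± 3.21), Fam57b (19.9 ± 3.96) and Sorcs2 (13.3 ± 5.71). Ttc25 (5.21 ± 2.17 CPM per kb), Pqlc3 (4.17 ± 0.343), Fer1l6 (3.66 ± 1.35) and Adprhl1 (2.82 ± 0.861) followed. The ranges of mean ± SD overlapped between neighbours in this order, except Slc38a10 above Fam57b and Sorcs2 above Ttc25. In KO at 22 °C the levels were 19.0 for Tmem120b, 14.95 for Slc38a10, 10.39 for Sbk1, 4.78 for Fam57b, 1.52 for Sorcs2, 1.07 for Pqlc3, 0.543 for Ttc25, 0.521 for Fer1l6 and 0.141 CPM per kb for Adprhl1. Tmem120b, Slc38a10 and Sbk1 were thus well expressed in all 4 groups, with means of 10.39 CPM per kb or more, while Ttc25, Fer1l6 and Adprhl1 exceeded 1 CPM per kb only in WT at 22 °C.

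Within WT at 22 °C the 9 genes did not rank the libraries alike. Sorcs2, Fer1l6, Pqlc3, Tmem120b and Sbk1 were highest in replicate 4. Adprhl1, Ttc25 and Fam57b were lowest in replicate 4 and highest in replicate 1, and Slc38a10 was highest in replicate 2. Replicate 4 is the WT library at 22 °C whose Dbp and Arntl levels stood apart. In a fit with the Dbp and Arntl difference as a covariate, KO against WT at 22 °C gave -4.18 for Sorcs2, -3.92 for Fer1l6, -3.44 for Adprhl1, -2.10 for Pqlc3, -2.00 for Ttc25, -1.86 for Sbk1, -1.38 for Fam57b, -1.26 for Tmem120b and -1.01 for Slc38a10 on the log2 scale. That contrast chose the members, so nothing is read from the sign of these values. The covariate did not overlap between the genotypes at 22 °C, so the values rest on extrapolation. With it the SE rose from 0.612 to 1.21 for Adprhl1, 0.390 to 0.674 for Fer1l6 and 0.124 to 0.238 for Pqlc3. The fit moved Sorcs2 and Fer1l6 further from 0 and Adprhl1, Ttc25 and Fam57b nearer to it.

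**Figure D3:**
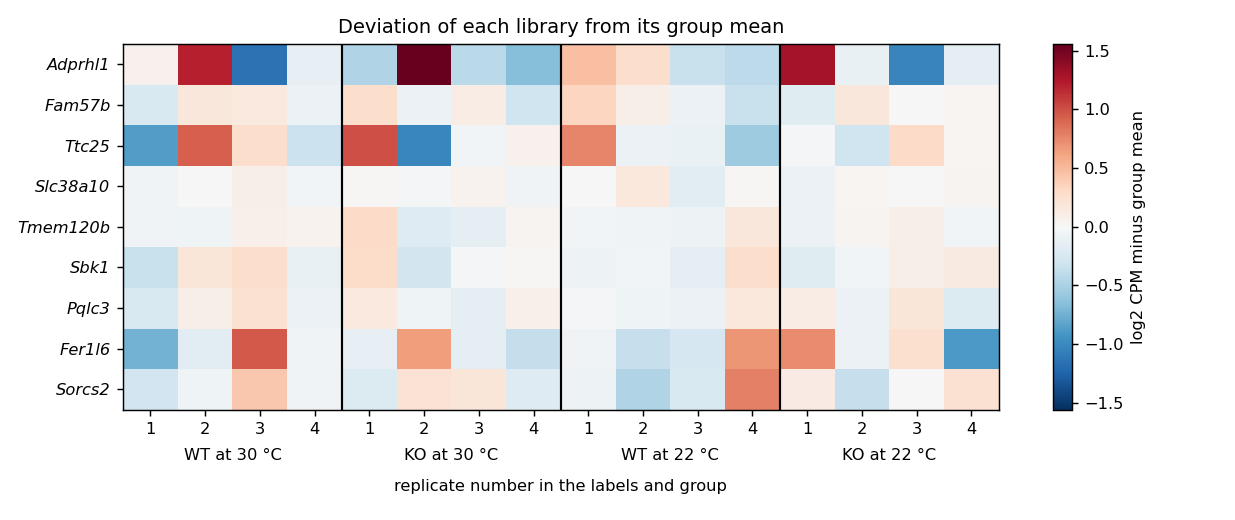
Deviation of log2 CPM from the group mean (colour scale, red above and blue below) for the 9 genes in each library, ordered by group and replicate number. In WT at 22 °C, replicate 4 is red for Sorcs2, Fer1l6, Pqlc3, Sbk1 and Tmem120b and blue for Adprhl1, Fam57b and Ttc25.

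The non-member genes whose log2 CPM followed each member most closely were ranked by Pearson r over the 16 libraries. Only tested genes of at least 2 mean log2 CPM and no predicted-gene name entered. Among members, r was 0.954 for Pqlc3 with Sbk1 and 0.937 for Sorcs2 with Sbk1, above some values listed below for them. The ranking describes a likeness to which group differences contribute. For deviations from group means, r of the genes listed ran from 0.244 (Sorcs2 and Pnpla3) to 0.862 (Sbk1 and Myo5b). For Fam57b the closest genes over the 16 libraries were Nsdhl (r = 0.987), Dlat (0.984) and Pmvk (0.983). For Tmem120b they were Nsdhl (0.982), Acss2 (0.980) and Fbxw4 (0.980), for Fer1l6 Acss2 (0.962), Lss (0.959) and Acly (0.958), and for Slc38a10 Tecr (0.982), Pitpnb (0.972) and Tkt (0.970). For Ttc25 they were Ola1 (0.958), Sirt5 (0.957) and Tkt (0.956), and for Adprhl1 Vdac1 (0.970), Gapdh (0.954) and Aldoa (0.952). The 3 members that were lower in KO at 22 °C than in KO at 30 °C shared 1 neighbour in this sense, Ank, with r of 0.958 for Sorcs2, 0.952 for Pqlc3 and 0.958 for Sbk1. The others were Dhcr7 (0.934) and Pnpla3 (0.932) for Sorcs2, Cdk16 (0.948) and Ccdc57 (0.947) for Pqlc3, and Myo5b (0.971) and Ccdc57 (0.940) for Sbk1. Ank, which encodes a membrane protein of pyrophosphate and nucleotide export, had log2 fold changes between temperatures of 0.78 in WT and -0.53 in KO.

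Relatives of the members were read from a list of 42 paralogs and complex partners, of which 33 passed the filter. At 22 °C, 4 of the 33, or 12.1%, differed between KO and WT by edgeR's test, against 17.6% of all genes, with a median log2 fold change of 0.05 against 0.02. Those that fell in KO were Sorl1, a sorting receptor of the Sorcs2 family (-1.58 ± 0.193, adjusted p = 8.54e-05), Tlcd1, a TLC-domain protein that bears on membrane fluidity (-0.83 ± 0.0989, adjusted p = 7.12e-05), and the ceramide synthase gene Cers2 (-0.35 ± 0.0819, adjusted p = 0.00971). Ctns, which encodes cystinosin, rose in KO (0.39 ± 0.0967, adjusted p = 0.0126), and without KO replicate 2 at 22 °C its adjusted p was 0.0594. The calls of Cers2 and Ctns were lost in a fit of only the groups compared. All 4 calls were lost with the Dbp and Arntl covariate, but it did not overlap between the genotypes at 22 °C. Their loss thus does not tell the clock from genotype. In the fit with that covariate 110 genes were called in all, against 2482 without it. In that fit the log2 fold changes were -1.69 ± 0.418 for Sorl1 (adjusted p = 0.0931), -0.61 ± 0.146 for Cers2 (0.0812), -0.53 ± 0.186 for Tlcd1 (0.292) and 0.47 ± 0.204 for Ctns (0.435), so that of Sorl1 was about as large as without the covariate while its SE was larger. At 30 °C none of the 33 was called by edgeR, DESeq2 or limma-voom, and 2 had an unadjusted p under 0.05 by edgeR.

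Sorl1 had means of 10.6 ± 2.37 CPM in WT and 8.30 ± 0.863 CPM in KO at 30 °C and of 79.2 ± 15.1 CPM in WT and 26.5 ± 7.37 CPM in KO at 22 °C (SD, n = 4). It rose at 22 °C in both genotypes, by 2.90 ± 0.205 in WT (adjusted p = 1.44e-07, edgeR) and 1.67 ± 0.202 in KO (adjusted p = 6.00e-05) on the log2 scale. The difference between the KO effects at 22 °C and 30 °C was -1.23 ± 0.279 (adjusted p = 0.0303). Tlcd1 likewise rose by 1.27 in WT and by 0.68 in KO, with a difference of -0.59 ± 0.140 (adjusted p = 0.0357). Over all genes 3.14% were called for that difference, and 2 of the 33 relatives, or 6.06%. Both calls were fragile: leaving out single libraries raised the adjusted p of Sorl1 to as much as 0.0674 (lost in 7 of 16 fits) and that of Tlcd1 to 0.0907 (lost in 10 of 16). The libraries in question were WT replicates 1 and 4 and KO replicates 1, 2 and 3 at 30 °C and KO replicate 3 at 22 °C for both genes, KO replicate 4 at 22 °C for Sorl1, and WT replicate 2 and KO replicate 4 at 30 °C and KO replicates 1 and 2 at 22 °C for Tlcd1.

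Tmem120a, the paralog of Tmem120b, rose at 22 °C in WT (0.99 ± 0.190, adjusted p = 0.000816 by edgeR) and in KO (1.12 ± 0.191, adjusted p = 0.000702), from 63.8 ± 10.7 to 127 ± 45.2 CPM and from 60.9 ± 7.96 to 133 ± 10.02 CPM (SD, n = 4). Its KO against WT value at 22 °C was 0.06 ± 0.188 (adjusted p = 0.838), where Tmem120b had -1.25 ± 0.0998. The difference between the 2 paralogs was not tested.

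In WT 12 of the 33 relatives, or 36.4%, changed between temperatures by edgeR's test, against 38.3% of all genes, with a median of -0.09 against -0.03. The 5 that rose were Sorl1, Tlcd1, Tmem120a, the TLC-domain gene Tlcd2 (0.97) and Mpdu1 (0.50), a PQ-loop gene needed for mannose donor use. The 7 that fell were the ferlin genes Otof (-2.31) and Myof (-1.06), the amino acid transporter genes Slc38a1 (-1.25) and Slc38a6 (-0.57), the ceramide synthase genes Cers5 (-0.29) and Cers4 (-0.28), and the dynein docking gene Ccdc151 (-0.64). The ferlin relatives that were called thus fell at 22 °C, while Fer1l6 was higher. Leaving out 1 library ended the call for Slc38a1 in 13 of 16 fits (adjusted p up to 0.111), for Cers4 in 13 (up to 0.142) and for Ccdc151 in 6 (up to 0.105). That for Cers5 was lost without WT replicate 1 (0.0605) or 2 (0.0523) at 30 °C.

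In KO 17 of the 33, or 51.5%, changed between temperatures, against 26.7% of all genes, with a median of -0.06 against 0.02. The 9 that rose were Sorl1, Tmem120a, Tlcd1, Tlcd2 (0.71), Slc38a2 (0.69), Mpdu1 (0.48), the sortilin gene Sort1 (0.39), Ctns (0.36) and Cln8 (0.25). The 8 that fell were Otof (-2.32), Pqlc1 (-1.04), Ccdc151 (-0.85), Myof (-0.61), the dysferlin gene Dysf (-0.48), Slc38a6 (-0.43), Cers2 (-0.29) and Cers5 (-0.25). Single libraries ended the calls of Cln8 in 11 of 16 fits (adjusted p up to 0.154), of Cers5 in 9 (0.107), of Slc38a2 (0.116), Tlcd2 (0.0870) and Myof (0.0749) in 4 each, and of Ctns without KO replicate 2 at 22 °C (0.0615). Without the 4 muscle-bearing libraries 5 rose and 3 fell.

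In each family the relative with the highest level per kb was Sort1 (30.3 CPM per kb over the 16 libraries), Adprh (12.2), Ccdc151 (1.01), Dysf (6.75), Cers2 (55.8), Mpdu1 (32.5), Slc38a2 (8.97), Tmem120a (55.6) and Sbk2 (3.03). Neither Adprh nor Adprhl2, the relatives of Adprhl1, and neither Sbk2 nor Sbk3, the relatives of Sbk1, was called in any comparison. The highest library of Sbk2, 40.0 CPM, was in the KO group at 22 °C, whose other libraries went down to 3.12 CPM.

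**Figure D4:**
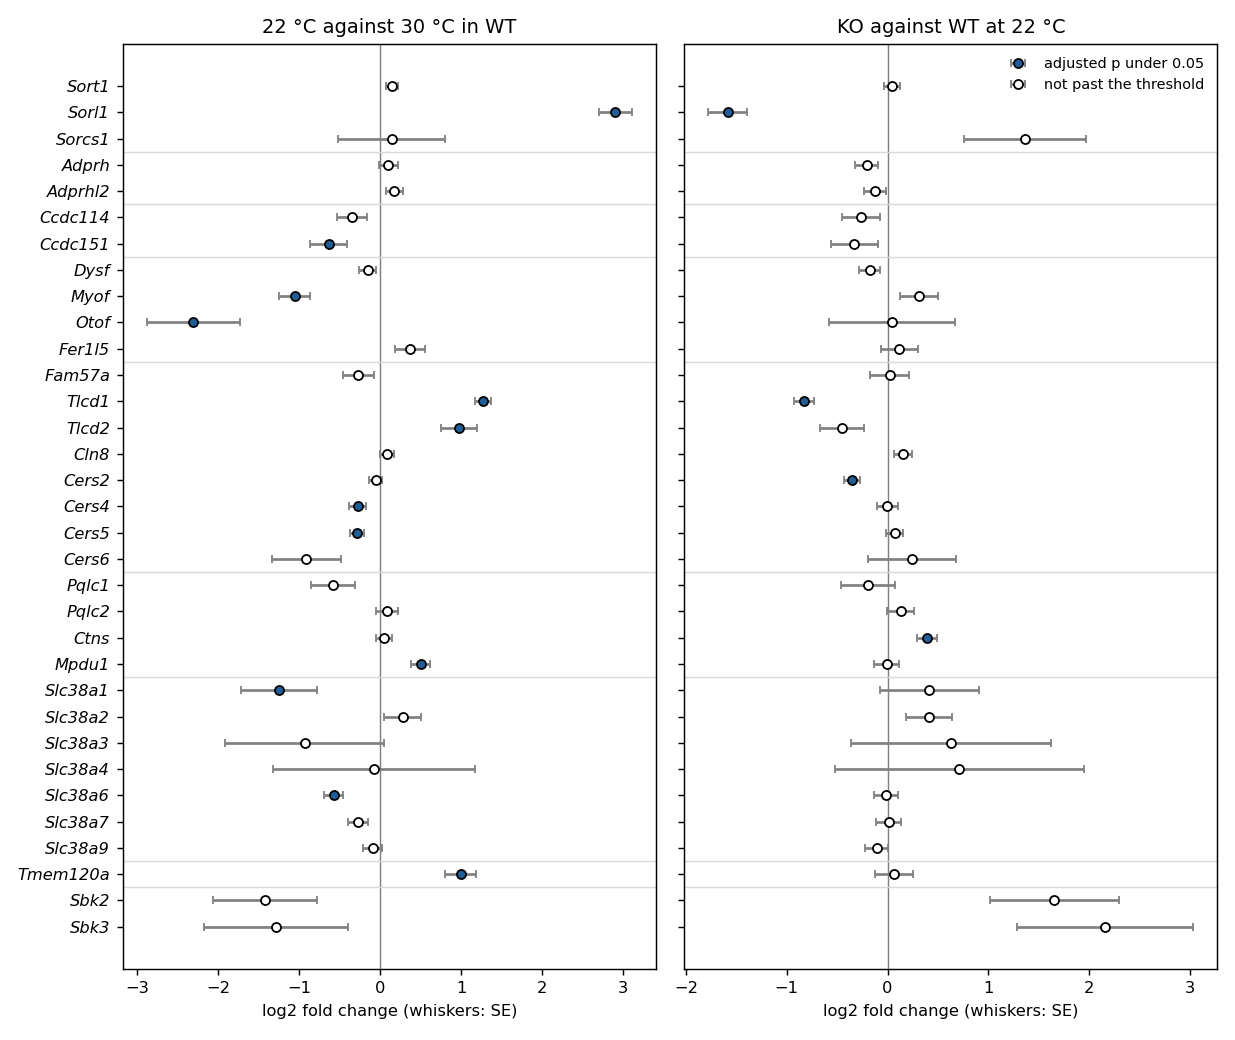
Log2 fold changes (whiskers SE) of the 33 tested relatives of the 9 genes between 22 °C and 30 °C in WT (left) and between KO and WT at 22 °C (right), grouped by family between grey lines. Filled points have an adjusted p under 0.05 by edgeR; Sorl1 and Tlcd1 are filled on both sides and Tmem120a on the left only.

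The nearest tested protein-coding gene on each side of each member gave 18 neighbours. At 22 °C 6 of the 18, or 33.3%, differed between KO and WT by edgeR's test, against the 17.6% of all genes. Ttc25 lies 17.6 kb from Acly, the gene of ATP citrate lyase, which makes acetyl-CoA for fatty acid synthesis, with no coding gene between them. Acly was at 563 ± 260 CPM in WT and 447 ± 111 in KO at 30 °C and at 5942 ± 1560 in WT and 852 ± 175 CPM in KO at 22 °C (SD, n = 4). It fell in KO at 22 °C, with a log2 fold change of -2.80 (SE 0.297, adjusted p = 2.27e-05 by edgeR), and rose at 22 °C in WT by 3.40. The Ttc25 values in the same contrasts were -3.26 and 3.29. On the other side of Ttc25, Cnp had 0.20 ± 0.204 in KO against WT at 22 °C.

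The other neighbours that fell in KO at 22 °C were Aldoa beside Fam57b (-1.15, adjusted p = 8.75e-05), Rhof beside Tmem120b (-0.75, adjusted p = 0.0274), and Grtp1 (-0.70) and Dcun1d2 (-0.36) on either side of Adprhl1. Fam91a1 beside Fer1l6 rose (0.35, adjusted p = 0.0391 by edgeR), a call lost in 10 of 16 fits that left out 1 library. With the Dbp and Arntl covariate Acly was still called (-3.13, adjusted p = 0.0169), and the other 5 calls were lost: Aldoa had -0.79 (adjusted p = 0.296), Rhof -0.48 (0.773), Grtp1 -0.23 (0.836), Dcun1d2 -0.20 (0.690) and Fam91a1 -0.01 (0.993). The call for Rhof was lost without WT replicate 2 (adjusted p = 0.0721) or KO replicate 3 (0.0601) or 4 (0.0571) at 22 °C. Those for Grtp1, Dcun1d2 and Fam91a1 were also lost in a fit of only the groups compared. In WT 7 of the 18, or 38.9%, changed between temperatures, against 38.3% of all genes: Acly, Aldoa (1.74), Grpel1 (1.22), Rhof (0.92) and Ndufaf8 (0.50) rose, and Tmem65 (-0.46) and Xpo6 (-0.24) fell. The call for Xpo6 was lost without WT replicate 1 (adjusted p = 0.0711) or 2 (0.0529) at 22 °C. None of the neighbours of Sorcs2, Pqlc3, Slc38a10 or Sbk1 was called by edgeR in KO against WT at 22 °C. Bahcc1 beside Slc38a10 was at the threshold, with -0.99 ± 0.332 (adjusted p = 0.0501 by edgeR). In that contrast DESeq2 called 8 of the 18 neighbours and limma-voom 7. Of all 14103 genes, DESeq2 called 3128 and limma-voom 2006.

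**Figure D5:**
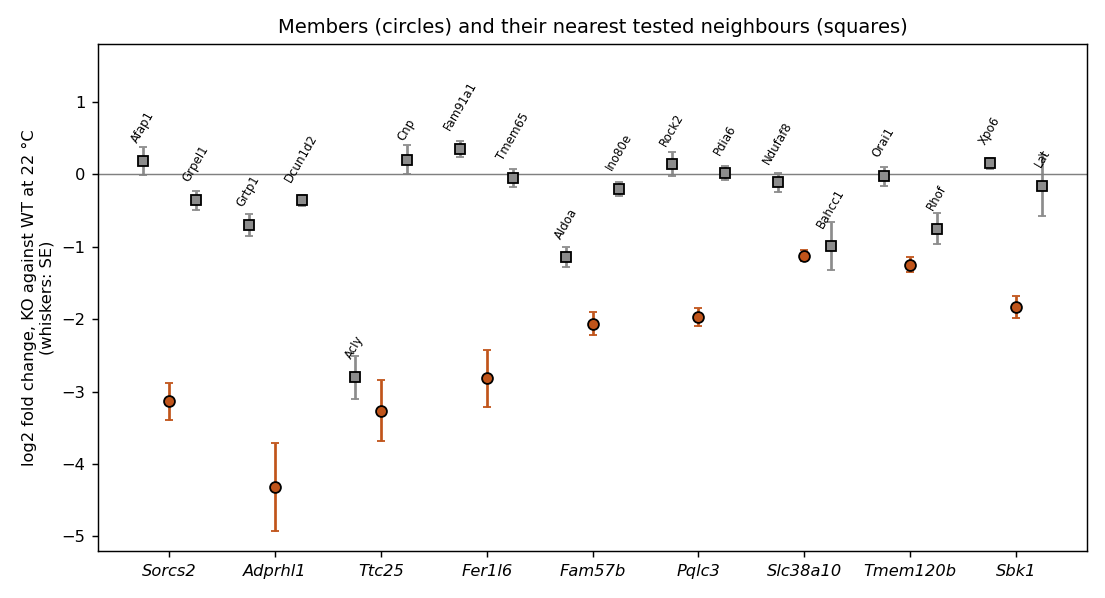
Log2 fold change in KO against WT at 22 °C (whiskers SE) of each of the 9 genes (circles) and of the nearest tested protein-coding gene at lower and higher coordinates (squares, left and right). Acly is at -2.80 and the next lowest neighbour, Aldoa, at -1.15.

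For 3 members, some exon bases are shared with a gene on the opposite strand. The sources used here do not say whether counting used strand. Reads that fall in the shared bases therefore cannot be assigned to 1 gene of a pair. Tmem120b shares 523 exon bases (18.3% of its exons) with Rhof, which had 1038 counts over the 16 libraries. Slc38a10 shares 367 bases (5.72%) with the transcript Gm11769, which had 317 counts. Fam57b shares 25 bases (0.635%) with Aldoa, which had 575434 counts. Slc38a10 also lies 654.5 kb from Fasn on the same chromosome, with 38 coding genes between them.

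Fasn itself, chosen as a reference, was at 839 to 3414 CPM in WT and 645 to 1467 CPM in KO at 30 °C, at 28286 to 35530 CPM in WT and at 3626 to 4517 CPM in KO at 22 °C. It was higher at 22 °C in KO (2.03 ± 0.352, adjusted p = 0.000789 by edgeR), where Sorcs2, Pqlc3 and Sbk1 were lower. Ucp1 rose by 2.03 in WT and by 2.00 in KO on the log2 scale, and KO against WT at 22 °C gave 0.21 ± 0.244 (adjusted p = 0.565).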

How the data were processed

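Bulk RNA-seq of interscapular brown fat was deposited as 1 table of raw counts per Ensembl gene and library, which the authors left unscaled, judging by the values. The submitters' processing notes name STAR 2.4.2a, FastQC 0.10.1 and edgeR 3.14.0 and the builds GRCm38 and mm10, with no roles. For the counting program, the annotation and the use of strand, the answer is not given in the sources used here. Libraries were grouped by their titles into 4 groups of 4. The 9 genes, the list of relatives and the alternatives were chosen with earlier results of these data known.

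Symbols were matched for 37607 identifiers and not for 1317. Positions, exon lengths and neighbours came from a GENCODE annotation of GRCm38. In R 4.3.3, edgeR 4.0.16 fitted 1 quasi-likelihood model to all 16 libraries with a term per group, TMM factors and filterByExpr (minimum count 10), which kept 14103 of 24818 genes with a count. Fold changes come from that model, with SE as the absolute log2 fold change over the square root of F. Calls are Benjamini-Hochberg adjusted p under 0.05 over all genes tested. CPM values use TMM-adjusted library sizes, and log2 CPM a prior count of 2. The biological coefficient of variation was 22.5%. Counting error was largest for Adprhl1, which went down to 1 count in a library, and was near the biological variation for Ttc25 and Fer1l6 at 30 °C, which went down to 17 and 23 counts. The code was tested on simulated data. Alternatives were DESeq2 1.42.0, voom in limma 3.58.1, other scalings and filters, a replicate block, covariates, and left-out libraries. Named were all 9 genes, Akt2, Fasn and Ucp1, and relatives called in any comparison or highest in their family. Neighbours called at 22 °C or overlapping a member were named too, as were the 3 non-members with the highest r for each member. Other neighbours, Ank, Adprhl2, Sbk3, and marker genes were named after their values were seen.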

Additional observations from a re-analysis of the deposited data

Results flagged for a closer look

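Among 36 groups of 4 libraries, 4 for each of the 9 genes, 2 had a single library far from the rest by Dixon's test, and chance alone flags about 1 group in 20. Adprhl1 was at 0.956 CPM in KO replicate 2 at 30 °C, where the other 3 libraries were between 0.109 and 0.151 CPM, and that library held 0.353% of its counts on skeletal muscle markers. Tmem120b was at 145 CPM in WT replicate 4 at 22 °C, where the others were between 121 and 124 CPM.

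The KO effect at 22 °C differed from that at 30 °C by -1.23 on the log2 scale for Sorl1 (adjusted p = 0.0303, edgeR) and by -0.59 for Tlcd1 (adjusted p = 0.0357, edgeR). For 3 members all libraries of WT were higher at 22 °C and all libraries of KO lower, so that the cold effect in KO minus that in WT was -2.75 for Sorcs2, -1.40 for Pqlc3 and -1.69 for Sbk1. These 3 differences were not tested, since the libraries at 22 °C chose the genes, and choosing genes low in KO at 22 °C itself favours this pattern. Over all genes, 18.4% were higher without overlap in WT at 22 °C and 15.0% lower without overlap in KO. By edgeR's calls, 2897 genes were higher in WT, 1829 were lower in KO and 26 were both.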

How the results depend on the processing

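None of the alternatives reversed the sign of any of the 9 genes in KO against WT at 22 °C or between temperatures in WT. Those contrasts chose the members, so nothing is read from this. At 30 °C DESeq2 and limma-voom each called 1 member lower (Pqlc3), where edgeR called 0. Of all 14103 genes, DESeq2 called 22 there and limma-voom 44. Adprhl1 at 30 °C turned to 0.12 with the clock covariate and ranged from -1.37 to 0.79 when single libraries were left out. Slc38a10 between temperatures in KO turned to -0.093 with upper-quartile scaling, which set the median of all genes at -0.08 in KO and -0.13 in WT. Fam91a1 turned to -0.012 with the clock covariate. The cause was not tested in these cases. Replicate numbers paired the libraries weakly at most: same-number correlations ran from -0.50 to 0.52 over 24 pairs, and 13 of these were over 0.1. Their median was 0.17 against -0.04 for other pairs, and 1 of 16 libraries correlated best with its own number. With the replicate block 2092 genes were called at 22 °C, 186 for the interaction (443 without it), 0 relatives for the interaction and 0 neighbours higher at 22 °C.

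For relatives at 22 °C the 3 lower calls became 0 with the clock covariate. The 1 higher call became 2 without a filter or with DESeq2 and 0 with only the groups compared or the clock covariate. In WT the 7 lower calls became 4 without a filter or with the clock covariate. In KO the 8 lower calls became 5 with the clock covariate and 3 without muscle-bearing libraries, and the 9 higher calls became 5 with upper-quartile scaling, the clock covariate or without those libraries. The 2 interaction calls became 1 without a filter or without those libraries and 0 with the clock covariate. For neighbours at 22 °C the 5 lower calls became 3 in fits of the compared groups alone and 1 with the clock covariate, and the 1 higher call became 0 without a filter, with only the groups compared, with either covariate or without those libraries. In WT the 2 lower calls became 1 without a filter, with only the groups compared, with the clock covariate or without those libraries.

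With single libraries left out, members and relatives at 30 °C stayed at 0 calls. Relatives ranged from 3 to 3 lower and 1 to 2 higher at 22 °C, 3 to 10 lower and 5 to 6 higher in WT, 6 to 10 lower and 6 to 9 higher in KO, and 0 to 2 for the interaction. Neighbours ranged from 4 to 6 lower and 0 to 1 higher at 22 °C, and 1 to 3 lower and 5 to 6 higher in WT.

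Over all genes, the 2482 calls at 22 °C became 634 with only the groups compared, 110 with the clock covariate and 1432 without muscle-bearing libraries. The 6 calls at 30 °C became 22 with DESeq2, 44 with limma-voom and 1 without those libraries. The 443 interaction calls became 1060 with DESeq2, 1050 with limma-voom, 236 without a filter, 30 with the clock covariate and 96 without those libraries. In KO the 3772 calls became 6067 with limma-voom, 2290 with the clock covariate and 2115 without those libraries.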
